A study of Mus musculus with 60 samples.

Results

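GATA1 and GATA2 are zinc finger transcription factors that direct red cell development, and they act in complexes with partner proteins. Expression of 10 genes encoding the GATA factors and these partners was followed in sorted mouse fetal erythroblasts: Gata1, Gata2, Zfpm1, Tal1, Lyl1, Tcf3, Lmo2, Ldb1, Cbfa2t3 and Gfi1b. The genes were taken by name from the 23393 genes of a table of normalised counts, and were chosen with earlier results of these data known. Each of the 10 was among the 10720 genes that passed the filter on low values (mean normalised count of 10 or more across the libraries). In erythroid cells GATA1 and a dimer of TAL1 with an E protein bind DNA together, held by the bridging proteins LMO2 and LDB1, while FOG1, the product of Zfpm1, binds the N-terminal zinc finger of GATA1 and recruits repressors. GATA2 works earlier, in stem and progenitor cells, and as erythroid cells mature GATA1 replaces it on DNA and its gene is silenced, an exchange known as the GATA switch.

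The study compared wild type embryos with Gata1s embryos, both on a C57BL/6 background. Gata1s embryos make a GATA1 protein that lacks its N-terminal region. Fetal liver cells of embryos at days E12.5 and E14.5 were sorted into CD71-high cells with no to medium Ter119, called R1/2, and CD71-high, Ter119-high cells, called R3, which are the more mature erythroblasts. The 20 RNA libraries were poly-A selected and kept strand. At E12.5 wild type had 2 R1/2 and 3 R3 libraries and Gata1s 4 and 2, and at E14.5 wild type had 2 of each sort and Gata1s 3 and 2. Whether embryos were pooled, their sex, and whether each library is a separate animal are not given in the sources used here. The p-values therefore measure the spread between these libraries alone, which may be technical.

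Libraries held 6.93 to 32.7 M reads. Erythroid markers were present in every group, 9 of 10 listed being found in the table, with summed normalised counts of 33825 to 91721 in R1/2 and 355517 to 1754030 in R3. Library names carry a prefix, JC or MS, whose meaning is not given; 14.6% of all genes differed between prefixes, and of the 10 genes Tcf3 did (0.14 log2 lower in MS, adjusted p = 0.0439). All Gata1s R3 libraries are MS, with 1 MS library of wild type R3 at each day, so the prefix was a term of every fit. Within 1 prefix each genotype comparison had a single wild type library, and JC at E14.5 R1/2 had a single library of each genotype. Adjusted p-values within a prefix thus take their spread only from groups with more than 1 library, and passing or not there is weak evidence. The same holds where leaving a library out leaves 1 in a group. Differences below are log2 differences ± standard error from limma on log2(normalised count + 1), a scale that understates changes of genes with few counts, with p-values adjusted over all genes. A gene passed at an adjusted p under 0.05. In bulk RNA, fewer cells of a type and less RNA per cell cannot be told apart.

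RefSeq promoter windows (GRCm38.p6, 250 bases before to 50 after an annotated start) were found for 9 of the 10 genes, 14 windows in all, Lmo2 having no entry. The windows were searched on both strands for GATAA, a core GATA motif, and for CANNTG, the E-box read by TAL1 with an E protein. GATAA was in 4 of the 14, those of Cbfa2t3, Gfi1b, Ldb1 and Tal1, each at 1 of the gene's starts, against 25.4% of 32851 promoters of the same length. CANNTG was in 9 of 14, against 72.3%. A GATAA with CTG placed 8 bases before it, the composite arrangement of the complex, was in none of the 14 and in 0.618% of all promoters; it overlaps the GATAA search by construction. The windows of the genes whose levels differed most by genotype are shown, 5′ to 3′ along the gene's strand, with GATAA or its reverse complement in capitals: both starts of Gata2 (chr6:88193641-88193940 and chr6:88198414-88198713, plus strand), Zfpm1 (chr8:122281891-122282190, plus strand), the Ldb1 start that held GATAA (chr19:46037021-46037320, minus strand) and the Cbfa2t3 start that held it (chr8:122699060-122699359, minus strand). The counts do not tell the starts of a gene apart.
Gata2, start 1: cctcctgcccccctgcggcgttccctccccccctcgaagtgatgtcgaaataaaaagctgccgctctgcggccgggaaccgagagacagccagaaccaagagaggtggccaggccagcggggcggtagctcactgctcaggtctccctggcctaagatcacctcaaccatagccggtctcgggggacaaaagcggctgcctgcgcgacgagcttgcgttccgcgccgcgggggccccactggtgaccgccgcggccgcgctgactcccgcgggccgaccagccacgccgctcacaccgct
Gata2, start 2: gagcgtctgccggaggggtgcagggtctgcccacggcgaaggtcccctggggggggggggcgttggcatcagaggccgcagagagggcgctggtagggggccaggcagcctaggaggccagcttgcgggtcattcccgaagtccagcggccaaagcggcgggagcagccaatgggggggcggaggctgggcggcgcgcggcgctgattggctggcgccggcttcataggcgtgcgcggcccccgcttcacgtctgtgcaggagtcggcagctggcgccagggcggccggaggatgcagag
Zfpm1: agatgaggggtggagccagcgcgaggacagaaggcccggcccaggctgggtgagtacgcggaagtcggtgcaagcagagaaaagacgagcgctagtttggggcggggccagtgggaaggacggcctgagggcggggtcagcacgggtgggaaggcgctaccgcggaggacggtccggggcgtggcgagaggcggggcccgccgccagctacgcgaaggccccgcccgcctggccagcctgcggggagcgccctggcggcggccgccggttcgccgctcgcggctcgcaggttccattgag
Ldb1, start 3: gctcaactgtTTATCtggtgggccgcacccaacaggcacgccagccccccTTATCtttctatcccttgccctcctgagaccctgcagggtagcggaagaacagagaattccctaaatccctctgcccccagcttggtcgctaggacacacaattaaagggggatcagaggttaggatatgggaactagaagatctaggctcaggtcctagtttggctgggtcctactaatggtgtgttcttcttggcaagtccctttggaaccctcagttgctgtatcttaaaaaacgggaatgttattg
Cbfa2t3, start 1: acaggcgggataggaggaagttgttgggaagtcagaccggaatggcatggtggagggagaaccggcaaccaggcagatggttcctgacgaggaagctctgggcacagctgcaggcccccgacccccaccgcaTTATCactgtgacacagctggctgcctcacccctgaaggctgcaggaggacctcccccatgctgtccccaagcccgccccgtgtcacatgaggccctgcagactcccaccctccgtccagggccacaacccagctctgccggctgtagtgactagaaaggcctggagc
The Gata2 and Zfpm1 windows held no GATAA. In the Ldb1 window the motif began 240 and 200 bases before the start, and in the Cbfa2t3 window 118 bases before it. These matches describe letters in the window, not binding.

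Gata1, the gene altered in these embryos, was transcribed in every library, and it was higher in Gata1s in 3 of the 4 combinations. In E12.5 R1/2 it had 3114 and 2824 normalised counts in wild type and 3549, 3764, 3475 and 3695 in Gata1s, and in E14.5 R1/2 it had 2976 and 3015 against 3628, 3687 and 3561. In neither did the genotypes overlap, and each Gata1s library lay above both wild type libraries. In E12.5 R3 the genotypes overlapped, with 7424, 8359 and 9068 against 7763 and 7643, and in E14.5 R3 they did not, with 9614 and 10803 against 14197 and 13744. It passed in R1/2 at both days, by 0.29 ± 0.07 at E12.5 (adjusted p = 0.0201) and 0.27 ± 0.08 at E14.5 (0.0375), and in R3 at E14.5 (0.44 ± 0.09, 0.000985). In E12.5 R3 it was -0.12 ± 0.08 (0.265), and with quantile normalisation or scaling to the library total it passed there in the other direction (0.24 and 0.32), whereas within MS libraries, the prefix of all Gata1s R3 libraries, it passed as lower (-0.24, 0.0116). Within JC libraries the R1/2 differences did not pass (0.23, 0.225, and 0.29, 0.312), and within MS they did (0.34 and 0.27). Both R1/2 calls were lost when single libraries were left out: at E12.5 wild type replicate 2 (0.243) or Gata1s replicate 2 (0.0585), and at E14.5 any 1 of its 5 libraries (0.0674 to 0.26), or Gata1s E12.5 R1/2 replicate 1 (0.0529) or 4 (0.0532). By mean level the groups ordered as Gata1s E14.5 R3 (13971), wild type E14.5 R3 (10209), wild type E12.5 R3 (8284) and Gata1s E12.5 R3 (7703), and then the 4 R1/2 groups (2969 to 3625); libraries of the last 2 of these R3 groups overlapped. Counts summed over the gene cannot tell full from truncated transcripts, so they do not check the mutation.

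Gata2 was higher in Gata1s in all 4 combinations, and the gap was widest in R3. In wild type R3 cells it was low, at 12.8, 10.4 and 11.3 normalised counts at E12.5 and 11.6 and 14.2 at E14.5, values that rest on 3 to 16 reads each. The Gata1s R3 libraries had 289 and 211 at E12.5 and 384 and 447 at E14.5, on 104 to 251 reads. Every Gata1s R3 library was thus far above every wild type R3 library, by 4.33 ± 0.40 log2 at E12.5 (adjusted p = 1.07e-06) and 4.93 ± 0.42 at E14.5 (2.71e-07), fitted folds of 20.1 and 30.4 on the log2(count + 1) scale. Both wild type prefixes gave similarly low values in R3. In R1/2 the wild type libraries themselves differed, with 38.9 and 119 at E12.5 and 82.1 and 45.9 at E14.5, against 229.6, 205, 127 and 144, and 149, 159.6 and 156, in Gata1s. No library overlapped in R1/2 either, but the margin was small at E12.5, where the higher wild type value was 119 and the lowest Gata1s value 127.

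The R1/2 differences of Gata2 were 1.32 ± 0.35 at E12.5 (adjusted p = 0.0271) and 1.33 ± 0.38 at E14.5 (0.0341). Both depended on single libraries. At E12.5 the difference missed the threshold when wild type replicate 1 (0.38, adjusted p = 0.639), Gata1s replicate 1 (0.0785) or Gata1s replicate 2 (0.0709) was dropped, and at E14.5 without wild type replicate 2 (0.85, 0.478) or any 1 of the Gata1s libraries (0.0699 to 0.0912). Within prefixes, the E12.5 R1/2 difference was 2.45 in JC libraries (38.9 against 229.6 and 205, adjusted p = 0.00669) and 0.19 in MS libraries (119 against 127 and 144, 0.770), and the E14.5 R1/2 difference was 0.85 in JC (0.275) and 1.76 in MS (0.00205). In R3, where every Gata1s library is MS, the difference within MS was 4.33 and 4.77. The R3 difference exceeded the R1/2 difference by 3.02 ± 0.53 at E12.5 (0.00172) and 3.60 ± 0.56 at E14.5 (0.000417). The R3 calls and these excesses held when any 1 library was left out. The order of mean levels put the 4 Gata1s groups first, from 415 in E14.5 R3 through 250.03, 177 and 155 to the wild type R1/2 groups at 79.0 and 64.0 and the wild type R3 groups at 12.9 and 11.5. Within wild type R1/2, within wild type R3, and among the 3 Gata1s groups after the first, neighbours in this order overlapped.

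Other cell types that express Gata2 were checked by their markers. Megakaryocyte markers, 10 genes, summed to 874 to 1393 normalised counts in wild type E12.5 R3 against 3047 to 3276 in Gata1s, and to 958 to 1110 against 3795 to 4941 at E14.5, with none of the 10 at 0 throughout those groups. In R1/2 they summed to 422 to 465 against 948 to 1814 at E12.5 and 291 to 301 against 779 to 888 at E14.5, with 2 of 10 at 0 in wild type E14.5 R1/2. Between genotypes this list moved with Gata2. Between sorts, its sums were higher in R3 than in R1/2 in both genotypes at both days. Gata2 was lower in R3 in wild type. In Gata1s its mean was 177 in R1/2 and 250 in R3 at E12.5, a difference that did not pass. At E14.5 it was 155 and 415, which passed. In the mean over the 4 combinations 5 of its 8 tested genes passed as higher and none as lower. Over all genes 19.7% passed as higher there and 25.6% as lower. The part of this list in the Gata2 result was not tested. Mast cell, basophil and eosinophil markers, 12 genes, overlapped between genotypes in E12.5 R3 (149.5 to 302 in wild type, 76.8 to 314 in Gata1s) and had lower sums in Gata1s E14.5 R3 (302 to 528 against 105 to 177), with 5 to 8 of the 12 at 0 in R3 groups. In R1/2 they summed to 93.9 to 139 against 403 to 784 at E12.5, and to 123 to 1518 against 664 to 1108 at E14.5, with 4 to 7 of 12 at 0. Of 3 tested, 1 passed as higher in E12.5 R1/2, where 4.95% of all genes did, and none passed in another combination or in the mean. The part of these markers was not tested. Sums of stem and progenitor markers overlapped between genotypes in R3 at both days (265 to 380 against 219 to 313, and 231 to 432 against 267 to 273). In R1/2 their sums were lower in Gata1s (6202 to 7351 against 4610 to 5910, and 6845 to 6959 against 4958 to 5509). Of 5 tested, 1 passed as higher in E12.5 R1/2 and 1 in E14.5 R3, where 4.95% and 16.8% of all genes did. In the mean 1 passed as higher and 1 as lower. The part of this list was not tested either.

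Endothelial markers, 8 genes, also had higher sums in Gata1s, with overlap in E12.5 R3. At E14.5 their sums were higher in R3 than in R1/2 in both genotypes, while Gata2 was lower in R3 in wild type and higher in Gata1s. In R1/2 they summed to 26.4 to 59.9 in wild type against 73.5 to 139.6 in Gata1s at E12.5 and to 15.7 to 28.2 against 56.5 to 87.05 at E14.5, without overlap, with at most 1 of the 8 at 0 throughout a group. In R3 they overlapped at E12.5 (50.7 to 77.02 against 71.3 to 98.96) and did not at E14.5 (90.98 to 113 against 134.7 to 155). Both of the 2 tested passed as higher in the mean, where 19.7% of all genes did, and neither in a single combination. Hepatoblast markers, 8 genes, passed as higher for 3 of 5 tested in E12.5 R1/2 and for 3 of 5 in E12.5 R3, where 4.95% and 14.2% of all genes passed as higher, with sums that overlapped (68.3 to 350.1 against 212 to 988, and 779 to 1922 against 1027 to 1862). In E14.5 R3 they passed as lower for 4 of 5, against 20.7% of all genes, with sums of 326 and 3596 against 80.8 and 188. Neutrophil and monocyte markers, 10 genes, passed as higher for 3 of 10 in E12.5 R1/2 (sums of 266 to 1271 against 1544 to 3598), and at E14.5 the wild type R1/2 libraries themselves differed, with 808 and 20788 against 4927 to 5355. Over all genes 4.95% passed as higher in E12.5 R1/2. Macrophage markers, 9 genes, passed as lower for 3 of 7 tested in E14.5 R3 (sums of 389 to 496 against 170 to 180), against 20.7% of all genes. In the mean 2 of 10 neutrophil and monocyte markers passed as higher, against 19.7% of all genes. There 2 of 7 macrophage markers passed as lower, against 25.6%, and no hepatoblast marker passed. No hepatoblast or neutrophil marker was at 0 throughout a group. The part of these 4 lists in the results was not tested.

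Zfpm1, encoding the GATA1 cofactor FOG1, moved the opposite way and was lower in Gata1s in all 4 combinations. At E12.5 it had 4517 and 3201 normalised counts in wild type R1/2 against 2825, 3226, 2459.8 and 2481 in Gata1s, and 11479.8, 13102 and 13713 in wild type R3 against 4823 and 5151. The R3 groups stood far apart, while in R1/2 the higher Gata1s value passed the lower wild type value. At E14.5 it had 4155 and 3099 against 2633, 2686 and 2404 in R1/2, and 15977 and 15742 against 10860 and 10706 in R3, with no overlap in either. In R1/2 the genotypes differed by -0.48 ± 0.12 at E12.5 (adjusted p = 0.0156) and -0.45 ± 0.12 at E14.5 (0.0293), and in R3 by -1.23 ± 0.13 at E12.5 (4.26e-06) and -0.47 ± 0.14 at E14.5 (0.0147). All 4 calls held under each scaling. Within MS libraries the differences were -0.37 and -0.29 in R1/2 and -1.46 and -0.55 in R3 and passed in all 4, and within JC libraries they were -0.58 in E12.5 R1/2 (adjusted p = 0.0385) and -0.66 in E14.5 R1/2 (0.0866). With single libraries left out, the E12.5 R3 call held throughout, while others did not. In R1/2 the difference missed the threshold at E12.5 when wild type replicate 1 was dropped (0.324), and at E14.5 when either wild type library (0.237 and 0.0573) or the Gata1s library 1 (0.102) or 3 (0.0836) was. In R3 at E14.5 it missed with wild type replicate 2 (0.136) or Gata1s replicate 2 (0.0622) dropped. Its mean levels ran from wild type E14.5 R3 (15859.5) and E12.5 R3 (12765), through Gata1s E14.5 R3 (10783) and E12.5 R3 (4987), to the wild type and then the Gata1s R1/2 groups (2574 to 3859), which overlapped from each to the next.

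**Figure D1:**
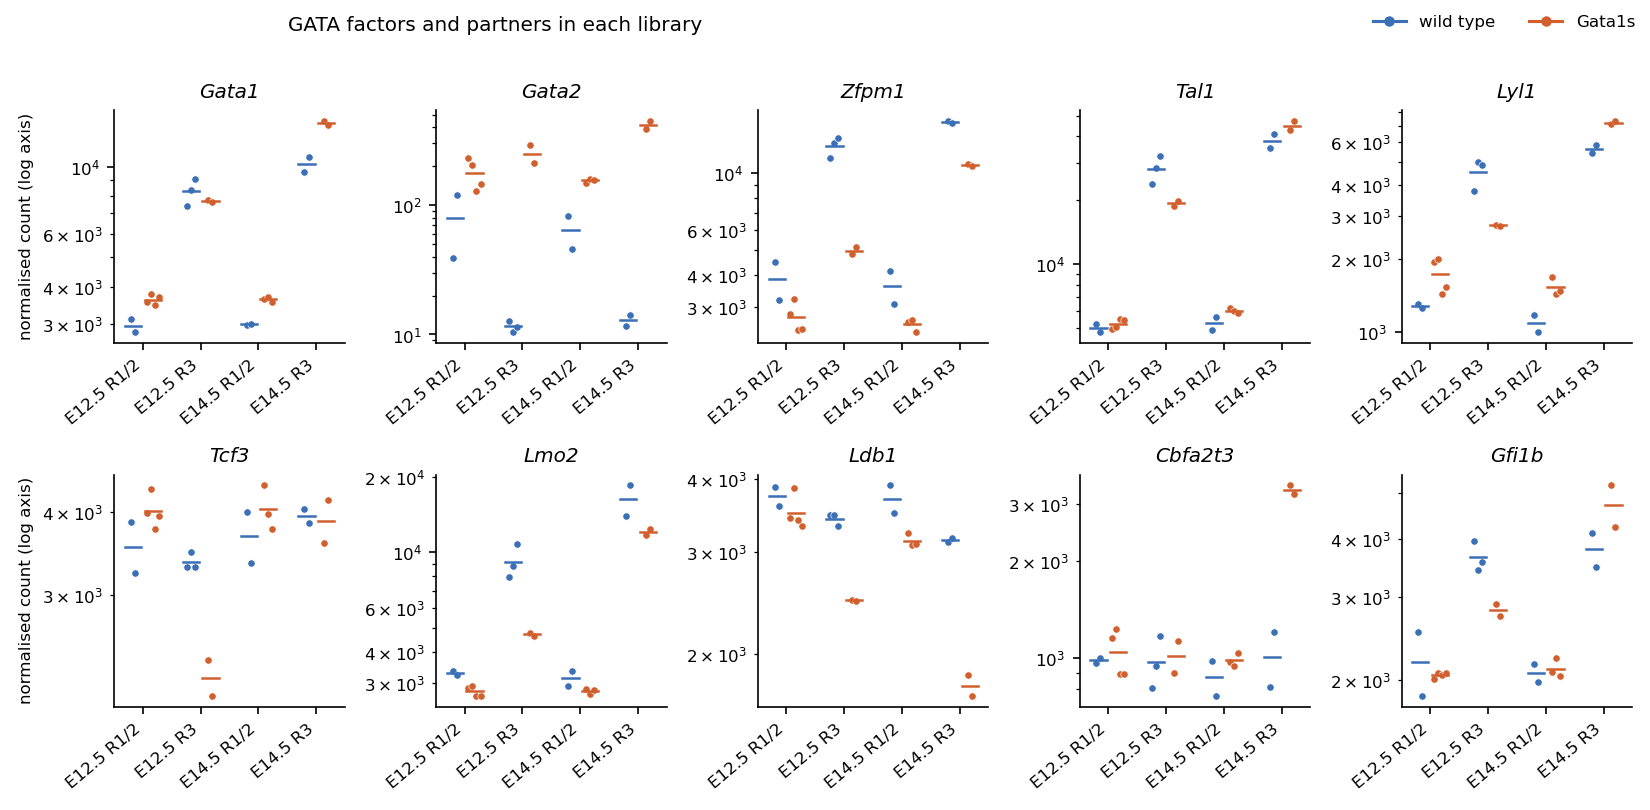
Normalised counts of the 10 genes in each of the 20 libraries, 1 panel a gene, on log vertical axes that differ between panels and do not start at 0. Points are libraries, lines are group means, blue is wild type and orange Gata1s, and the horizontal axis gives day and sort; Gata2 in R3 lies between 10.4 and 14.2 in wild type and between 211 and 447 in Gata1s.

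Ratios within a library do not depend on scaling between libraries. Zfpm1 per Gata1 count lay between 1.03 and 1.66 in the 9 wild type libraries and between 0.621 and 0.857 in the 11 Gata1s libraries. No library of either genotype fell in the range of the other, in any combination. The ratio depends on the lengths of both transcripts, so it is compared across groups only. Gata2 per 1000 Gata1 counts was 1.204 to 1.73 in wild type R3 and 27.01 to 37.2 in Gata1s R3. In R1/2 it was 12.49 and 42.2 in wild type against 36.6 to 64.7 in Gata1s at E12.5, which overlapped, and 15.2 and 27.6 against 41.1 to 43.9 at E14.5, which did not. In wild type every R3 library lay below every R1/2 library, and so it was in Gata1s at E14.5 (27.01 and 32.5 against 41.1 to 43.9), while the Gata1s sorts overlapped at E12.5. The ratios are given as descriptions and were not tested.

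**Figure D2:**
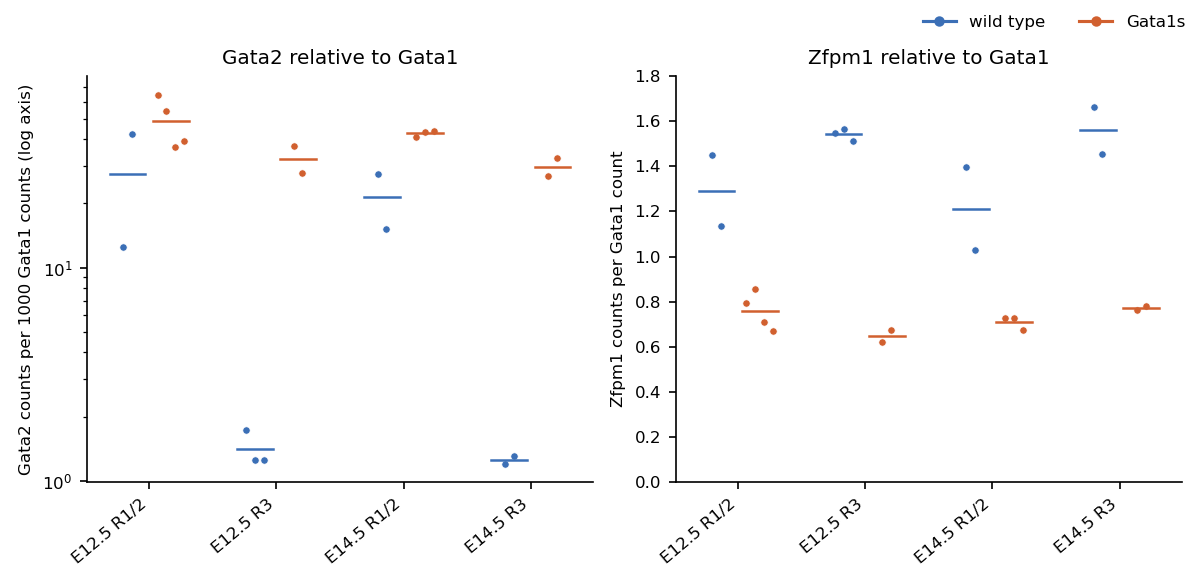
Counts of Gata2 per 1000 counts of Gata1 (left, log axis) and of Zfpm1 per count of Gata1 (right, axis from 0) in each library, by day and sort. Points are libraries and lines group means, with wild type in blue and Gata1s in orange; on the right every wild type library lies above 1.02 and every Gata1s library below 0.86.

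The bHLH partners differed in direction between combinations. Tal1, whose product binds DNA beside GATA1, had 23986, 28339 and 32373 normalised counts in wild type E12.5 R3 and 18852 and 19831 in Gata1s, with no overlap. Its difference there was -0.61 ± 0.10 (adjusted p = 0.00025), and in the other combinations it did not pass: 5203 and 4785 against 4959 to 5525 in E12.5 R1/2 (0.07), 4893 and 5619 against 5854 to 6194 in E14.5 R1/2 (0.18), and 35247 and 41146 against 42717 and 47369.9 in E14.5 R3 (0.18; 0.29 with total scaling, which passed, 0.0189). Lyl1, encoding a close relative of TAL1, was higher in Gata1s in 3 combinations and lower in E12.5 R3. It had 1301 and 1262 against 1948, 2002, 1434 and 1536 in E12.5 R1/2, and 1178 and 1003 against 1686, 1434 and 1478 in E14.5 R1/2. In R3 it had 3786, 4977 and 4834 against 2766 and 2731 at E12.5, and 5421 and 5859.7 against 7109.7 and 7352 at E14.5. The genotypes overlapped in none of the 4. In R1/2 it differed by 0.42 ± 0.12 at E12.5 (adjusted p = 0.037) and 0.51 ± 0.13 at E14.5 (0.0155), and in R3 by -0.62 ± 0.13 at E12.5 (0.00201) and 0.43 ± 0.14 at E14.5 (0.027). Within prefixes the E12.5 R1/2 increase did not pass (0.23, 0.0702, in MS and 0.60, 0.0722, in JC), and the E14.5 R1/2 increase did not in JC (0.52, 0.248). Each of the 3 increases was lost without single libraries, the highest adjusted p being 0.279, 0.21 and 0.16. Those libraries were both wild type libraries of E12.5 R1/2 (0.279 and 0.0858), Gata1s E12.5 R1/2 replicates 1 (0.1) and 2 (0.101) and Gata1s E14.5 R1/2 replicate 3 (0.0506) for the first, wild type E14.5 R1/2 replicate 2 (0.21) and Gata1s replicate 1 (0.0574) for the second, and wild type E14.5 R3 replicate 1 (0.16) and both Gata1s libraries (0.0676 and 0.104) for the last. Tcf3, the E protein gene E2A that supplies a partner of TAL1 and LYL1, had 3307, 3478 and 3305 in wild type E12.5 R3 against 2400.3 and 2117 (-0.48 ± 0.08, 0.000339), and did not pass in E12.5 R1/2 (0.18), E14.5 R1/2 (0.16) or E14.5 R3 (0.04). Its values over all 20 libraries ran from 2117 to 4379.

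The genes of both bridging proteins were lower in Gata1s R3, except that Ldb1 at E12.5 turned direction with total scaling (0.031, adjusted p = 0.759). Lmo2, the LIM-only bridge, had 7939.9, 8838 and 10727 normalised counts in wild type E12.5 R3 against 4778 and 4639, and 13987 and 18486 in wild type E14.5 R3 against 11664 and 12333. No libraries overlapped, and the fitted ratio of Gata1s to wild type at E12.5 was 0.495. The differences were -1.02 ± 0.12 (adjusted p = 8.12e-06) and -0.47 ± 0.12 (0.00665). The second missed the threshold with replicate 2 of wild type E14.5 R3 dropped (-0.27, 0.154). In R1/2 Lmo2 had 3340.4 and 3246 against 2657 to 2925 at E12.5 (-0.25, 0.172) and 2913 and 3353 against 2725 to 2855 at E14.5 (-0.17, 0.394), and did not pass. Under other choices it did: within MS libraries it was lower at both days (-0.28, 0.0207, and -0.27, 0.0142), and at E12.5 also with quantile normalisation (-0.27, 0.0106) and total scaling (-0.25, 0.0281). Ldb1, the dimerising protein that links distant DNA sites, had 3464, 3464 and 3314 in wild type E12.5 R3 against 2481 and 2465, and 3113 and 3159 in wild type E14.5 R3 against 1840.1 and 1692. The Gata1s values were below every wild type value, with differences of -0.41 ± 0.07 at E12.5 (adjusted p = 0.000175) and -0.79 ± 0.07 at E14.5 (3.9e-07). In R1/2 it passed at E14.5, with 3899.7 and 3489.7 against 3229, 3076 and 3085 (-0.22 ± 0.06, 0.0314), a call lost without any 1 of those 5 libraries (0.0745 to 0.191), with total scaling (-0.16, 0.253) and within MS (-0.18, 0.0986) or JC (-0.27, 0.309) libraries, and not at E12.5, with 3868 and 3594 against 3314 to 3856 (-0.09, 0.395). Gata1s E14.5 R3 had the lowest Ldb1 mean of the 8 groups (1766), followed by Gata1s E12.5 R3 (2473), with a gap to the others (3130.1 to 3731).

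Cbfa2t3 and Gfi1b, which encode repressive factors, passed between genotypes by limma in R3 at E14.5 and in no other of the 4 combinations. Cbfa2t3 encodes ETO2, a corepressor carried by the TAL1 complex. It had 963 and 999.8 normalised counts in wild type E12.5 R1/2 against 1151, 1229, 889 and 889 in Gata1s, and 805, 943 and 1167 in wild type E12.5 R3 against 899.8 and 1128. At E14.5 it had 979 and 759 against 972, 940.3 and 1031 in R1/2, and 814 and 1199 against 3422 and 3203 in R3. In 18 libraries it thus lay between 759 and 1229, and both Gata1s E14.5 R3 libraries stood apart. There it was higher by 1.74 ± 0.21 (adjusted p = 1.03e-05), a fitted 3.35-fold difference that held under every alternative fitted to it, while the other 3 differences ranged from 0.07 to 0.19 and did not pass, except in E12.5 R3 with total scaling (0.51, 0.0207). Gfi1b, encoding a repressor that GATA1 induces and that recruits LSD1, had 4106 and 3485 in wild type E14.5 R3 against 5196 and 4232 (0.36 ± 0.12, 0.0283), with no overlap. It missed the threshold with wild type replicate 2 (0.198) or Gata1s replicate 1 (0.254) dropped and with quantile normalisation (0.31, 0.0851). In E12.5 R3 it had 3955, 3421 and 3570.3 against 2908 and 2729.7, and at -0.30 ± 0.11 it did not pass (0.051). That call depended on the choices made: it passed as lower within MS libraries (-0.34, 0.0391) and in DESeq2 (-0.31, 0.0378), was near 0 with quantile normalisation (-0.0011, 0.995) and positive with total scaling (0.14, 0.429), and had adjusted p-values of 0.0125 to 0.214 with single libraries left out. In R1/2 it had 1845 to 2532 in all libraries of both days.

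**Figure D3:**
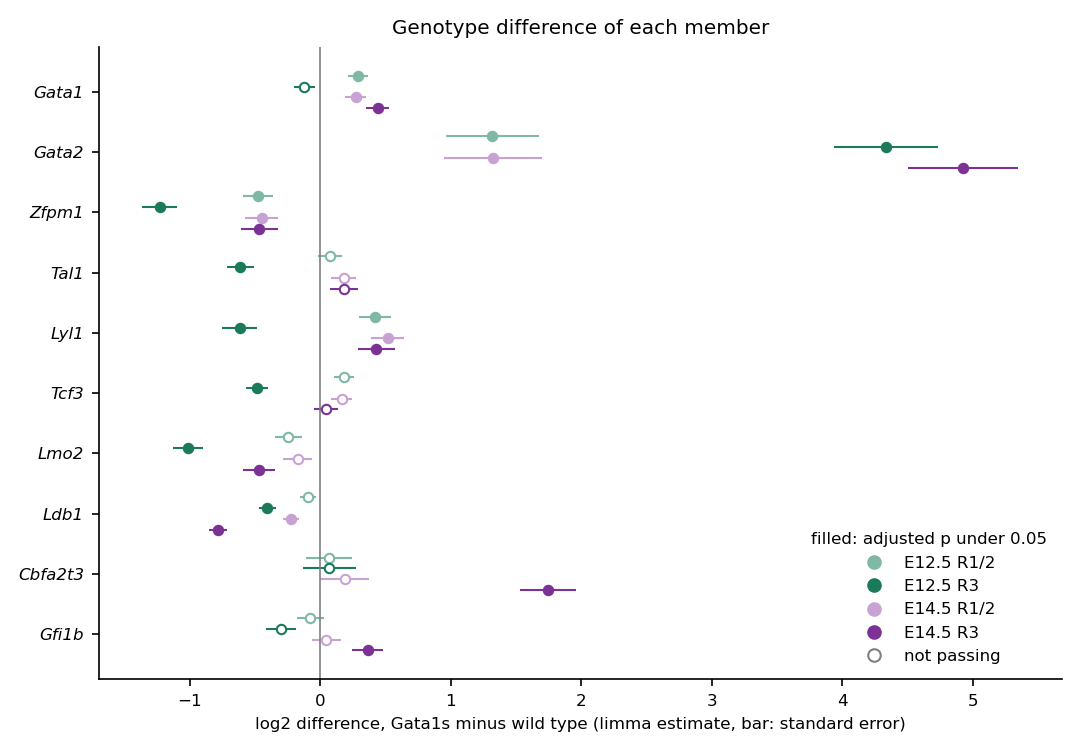
Log2 difference between Gata1s and wild type for each of the 10 genes in the 4 combinations of day and sort, as the limma estimate with its standard error. Filled points passed (adjusted p under 0.05) and open points did not; Gata2 lies at 4.33 and 4.93 in R3, and Zfpm1 is below 0 in all 4.

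Counted together, 4 of the 10 genes passed between genotypes in E12.5 R1/2 (3 higher, 1 lower), where 9.55% of all genes passed (4.95% higher, 4.6% lower), and 5 in E14.5 R1/2 (3 higher, 2 lower), where 10.1% did (5% higher, 5.13% lower). In R3 the counts were 7 at E12.5 (1 higher, 6 lower), against 35.9% of all genes (14.2% higher, 21.7% lower), and 8 at E14.5 (5 higher, 3 lower), against 37.4% (16.8% higher, 20.7% lower). In the mean over the 4 combinations 7 passed (4 higher, 3 lower), against 45.3% (19.7% higher, 25.6% lower): Gata1 (0.22), Gata2 (2.98), Lyl1 (0.19) and Cbfa2t3 (0.52) higher, and Zfpm1 (-0.66), Lmo2 (-0.48) and Ldb1 (-0.38) lower. The median difference of the 10 in R1/2 was 0.069 at E12.5 and 0.17 at E14.5, beside medians over all genes of -0.021 and -0.0080, and in R3 it was -0.45 and 0.27, beside -0.0011 and -0.053. edgeR called the same genes in the same directions in all 5 of these comparisons, in which it called 14.3%, 13.6%, 35.6%, 29.7% and 43% of all genes. The Lyl1 call in the mean was lost without any 1 of 10 libraries (adjusted p up to 0.106).

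Library composition differed between genotypes in E12.5 R3. Total normalised counts were 18.1 to 21.1 M in wild type libraries and 14.9 to 15.2 M in Gata1s. Erythroid markers summed to 636056 to 906329 against 355517 to 358072, and 9 of 9 tested passed as lower, against 21.7% of all genes. Scaled to the library total, the median over all genes moved by 0.43 in this comparison, and on that scale Zfpm1 (-0.79) and Lmo2 (-0.58) still passed as lower. Tal1 (-0.17, adjusted p = 0.0791), Lyl1 (-0.18, 0.17), Tcf3 (-0.044, 0.702) and Ldb1 (0.031, 0.759) did not. With quantile normalisation Zfpm1 (-0.75), Lmo2 (-0.59) and Tcf3 (-0.20, 0.0469) passed and Tal1, Lyl1 and Ldb1 did not. Relative to the median gene, which the deposited scaling leaves at -0.0011, 6 genes were lower. Erythroid sums were also lower in Gata1s R1/2, without overlap. At E12.5 they were 48716 to 49424 in wild type against 33825 to 46307. At E14.5 they were 54125 to 91721 against 48947 to 53849. On each day 1 of 9 tested passed as lower there, against 4.6% of all genes at E12.5 and 5.13% at E14.5. In R3 at E14.5 the sums overlapped, and 2 of 9 passed as lower, against 20.7% of all genes. In the mean 8 of 9 did, against 25.6% of all genes. The part of the erythroid list in the decreases of the 10 genes, in any combination, was not tested.

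Between the sorts, 6 genes rose from R1/2 to R3 in both genotypes at both days. Tal1 rose most in wild type, by 2.51 ± 0.10 log2 at E12.5 (adjusted p = 5.09e-12) and 2.86 ± 0.11 at E14.5 (2.1e-12), fitted folds of 5.69 and 7.26. Gata1 rose by 1.48 ± 0.08 and 1.77 ± 0.08, Zfpm1 by 1.71 ± 0.12 and 2.14 ± 0.13, Lyl1 by 1.79 ± 0.13 and 2.37 ± 0.14, Lmo2 by 1.48 ± 0.11 and 2.36 ± 0.12, and Gfi1b by 0.74 ± 0.11 and 0.87 ± 0.12. Gata2 fell (-2.48 ± 0.38 at E12.5, adjusted p = 1.8e-05, and -2.18 ± 0.41 at E14.5, 0.000136), and Ldb1 fell (-0.14 ± 0.06, 0.0494, and -0.23 ± 0.07, 0.00481). Thus 8 of 10 passed in wild type at each day (6 higher, 2 lower), against 75% of all genes at E12.5 (35.9% higher, 39.1% lower; edgeR 77.1%) and 79.3% at E14.5 (37.7% higher, 41.6% lower; edgeR 78.7%). The increases of Gata1, Zfpm1, Tal1, Lyl1 and Lmo2 and the decrease of Gata2 held in wild type under each scaling, with other sizes. Scaled to the library total, where the median over all genes moved by -0.77 and -1.25, Tal1 rose by 1.73 and 1.60, Gata1 by 0.71 and 0.50, and Gata2 was at -3.22 and -3.36. Gfi1b did not hold, at 0.19 and 0.056 with quantile normalisation, and with total scaling at -0.040 and, passing as lower at E14.5, -0.39. The Ldb1 decrease was larger with quantile normalisation (-0.75 and -1.06) and with total scaling (-0.92 and -1.50), and passed with both. Tcf3, which did not pass here, passed as lower with both, at -0.70 and -0.81 with quantile normalisation and -0.87 and -1.16 with total scaling, as did Cbfa2t3 with total scaling (-0.81 and -1.06). The Ldb1 call at E12.5 was lost without any 1 of 14 libraries (adjusted p up to 0.169), and the E14.5 call without wild type E14.5 R1/2 replicate 1 (0.0553) or wild type E14.5 R3 replicate 1 (0.062).

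In Gata1s the same 6 genes rose, although Gfi1b did not pass with total scaling at E12.5 (0.18, adjusted p = 0.242) and turned direction with it at E14.5 (-0.032, 0.833). At E12.5 Tal1 rose by 1.82 ± 0.10, Gata1 by 1.07 ± 0.08, Zfpm1 by 0.96 ± 0.12, Lyl1 by 0.75 ± 0.12, Lmo2 by 0.71 ± 0.11 and Gfi1b by 0.51 ± 0.11, and at E14.5 the same genes rose by 2.86, 1.93, 2.13, 2.29, 2.06 and 1.18. Tcf3 fell at E12.5 (-0.76 ± 0.08, adjusted p = 3.56e-07) and Ldb1 fell at both days (-0.46 and -0.80). Cbfa2t3 rose at E14.5 by 1.75 ± 0.19 (2.74e-07). Gata2 was at 0.54 ± 0.37 at E12.5 (0.204; 0.0291 and 0.0302 without wild type E12.5 R1/2 replicate 1 or 2) and rose at E14.5 by 1.42 ± 0.38 (0.00261), a rise that did not pass with total scaling (0.21, 0.619). Of the 10 genes, 8 passed at E12.5 (6 higher, 2 lower) and 9 at E14.5 (8 higher, 1 lower), against 69% of all genes at E12.5 (33.9% higher, 35.1% lower; edgeR 71.2%) and 81.7% at E14.5 (38.7% higher, 43% lower; edgeR 80.1%).

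**Figure D4:**
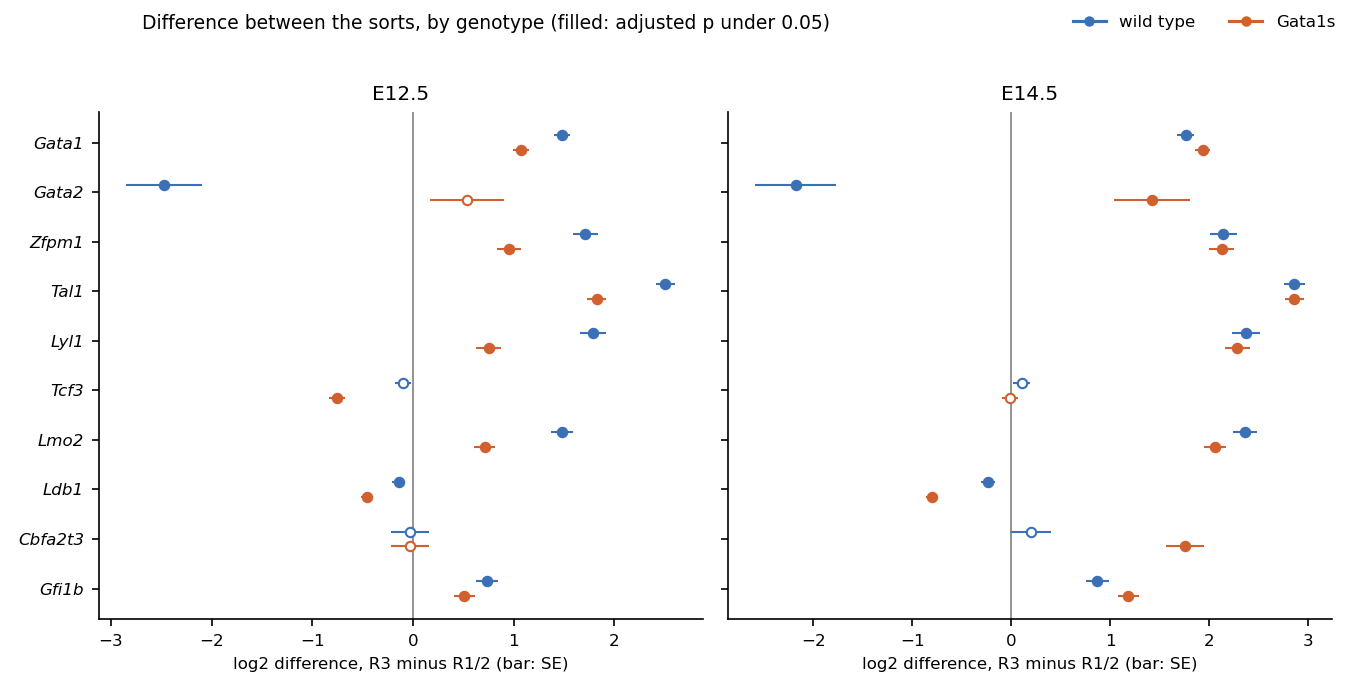
Log2 difference of R3 minus R1/2 for the 10 genes in wild type (blue) and Gata1s (orange) at E12.5 (left) and E14.5 (right), as the limma estimate with its standard error. Filled points passed (adjusted p under 0.05); Gata2 lies at -2.48 and -2.18 in wild type and at 0.54 and 1.42 in Gata1s.

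The test of whether the sort difference itself differed by genotype passed for 8 of 10 genes at E12.5 (1 higher, 7 lower), against 15.4% of all genes (4.22% higher, 11.2% lower; edgeR 16.3%), and for 3 at E14.5 (2 higher, 1 lower), against 15.7% (7.13% higher, 8.61% lower; edgeR 12.9%). edgeR called 7 at E12.5, Ldb1 missing (adjusted p = 0.0586), and the same 3 at E14.5. At E12.5 Gata2 was higher (3.02), and Lyl1 differed most among the lower (-1.04 ± 0.18, 0.00157), followed by Lmo2 (-0.77 ± 0.16, 0.00387), Zfpm1 (-0.76 ± 0.18, 0.00898), Tal1 (-0.68 ± 0.14, 0.00389), Tcf3 (-0.66 ± 0.11, 0.00137), Gata1 (-0.41 ± 0.11, 0.0202) and Ldb1 (-0.31 ± 0.09, 0.0249). Of these lower ones, Lyl1 (-0.75 and -0.59) and Lmo2 (-0.32 and -0.32) passed both with quantile normalisation and with total scaling, where the median over all genes moved by 0.44, and Tcf3 passed with quantile normalisation (-0.37). The Gata1 and Ldb1 calls were each lost when any 1 of 4 libraries was dropped, namely wild type E12.5 R1/2 replicate 2, wild type E12.5 R3 replicate 3 or either Gata1s E12.5 R3 library (0.0564 to 0.0944). At E14.5 the genes were Gata2, Cbfa2t3 (1.56 ± 0.28, 0.00134) and Ldb1 (-0.56 ± 0.09, 0.000657), and all 3 passed under each scaling. For Gata1, Zfpm1, Tal1 and Lyl1 the 95% intervals of the E14.5 difference were -0.08 to 0.41, -0.41 to 0.37, -0.30 to 0.31 and -0.49 to 0.31.

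Between the days nothing passed in R1/2. There 0 of 10 genes passed in wild type by limma, by edgeR also 0, against 1.04% of all genes (edgeR 2.06%), and 0 in Gata1s by both tools, against 1.32% (1.08% higher; edgeR 2.33%); at an unadjusted p under 0.05 the limma counts were 0 and 2. In wild type R3, 6 genes were higher at E14.5, against 40.7% of all genes passing (21.1% higher, 19.5% lower), and edgeR called 4, against 34.8%. Lmo2 rose by 0.81 ± 0.11 (adjusted p = 5.54e-05), the only one of the 6 that also passed as higher with quantile normalisation (0.29) and total scaling (0.24). Tal1 (0.42), Lyl1 (0.35), Zfpm1 (0.35), Gata1 (0.30) and Tcf3 (0.25) turned direction under both, and each of the 5 lost its call without wild type E14.5 R3 replicate 2 (0.0507 to 0.371). Zfpm1 (0.138), Lyl1 (0.159) and Tcf3 (0.0673) also lost it without wild type E12.5 R3 replicate 1, and Zfpm1 without replicate 2 (0.0725). In Gata1s R3, 9 genes passed (8 higher, 1 lower), against 60% (29.5% higher, 30.5% lower; edgeR 57.6%). Cbfa2t3 (1.72 ± 0.21), Lyl1 (1.39 ± 0.14), Lmo2 (1.35 ± 0.12), Tal1 (1.22 ± 0.11), Zfpm1 (1.11 ± 0.13), Gata1 (0.86 ± 0.08), Tcf3 (0.78 ± 0.09) and Gfi1b (0.73 ± 0.12) were higher at E14.5 and Ldb1 lower (-0.49 ± 0.07). Under both other scalings Cbfa2t3, Lyl1, Lmo2 and Ldb1 passed in those directions; Gata2 was at 0.74 ± 0.41 (0.129; 0.0298 and 0.0309 without wild type E12.5 R1/2 replicate 1 or 2).

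The genotype difference in R3 itself differed between the days for 9 of 10 genes (8 higher at E14.5, 1 lower), against 23% of all genes (9.54% lower; edgeR 19.4%), and Gata2 was the exception (0.59 ± 0.56, adjusted p = 0.467). The difference was greatest for Cbfa2t3 (1.67 ± 0.28, 0.00073) and Lyl1 (1.05 ± 0.19, 0.00123). Cbfa2t3 (1.23 and 1.34), Lyl1 (0.68 and 0.71) and Ldb1 (-0.49 and -0.71) passed with quantile normalisation and total scaling, and of the others Tal1 passed with total scaling (0.46). In R1/2 no gene passed this test by limma or edgeR, against 0.00933% of all genes (edgeR 0.0187%), and 0 did at an unadjusted p under 0.05.

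Genes of the machinery that these factors bind were followed through 7 lists, 65 entries of which 54 were tested, in the mean genotype difference over the 4 combinations, where 45.3% of all genes passed. Of 13 genes of the NuRD remodelling complex, which FOG1 recruits, 5 were higher and 3 lower; the remodeller Chd3 rose by 1.62 ± 0.15 (adjusted p = 3.26e-07) and the subunit Gatad2a by 0.37 ± 0.04 (4.95e-07). Of 10 LSD1 and CoREST genes, bound by GFI1B, 2 were higher and 2 lower, with Phf21a at 0.63 ± 0.11 (0.000155) and Rcor3 at -0.39 ± 0.09 (0.00186). Of 5 tested LIM, LDB and SSBP genes 2 were higher and 2 lower, all 4 of them SSBP genes, whose family includes proteins that stabilise LDB1; the higher were Ssbp4 by 0.74 ± 0.07 (5.76e-07) and Ssbp2 by 0.39 ± 0.05 (7.76e-06). None of 4 tested genes for other E proteins, bHLH factors and Id inhibitors passed by limma or edgeR, 1 of them at an unadjusted p under 0.05. Of 3 tested paralogs of ETO, GFI, FOG and GATA, Runx1t1, the ETO gene itself, was lower (-1.36 ± 0.17, 1.01e-05). Of 8 coactivators and bromodomain readers 0 were higher and 2 lower, the Mediator subunit Med1 (-0.31 ± 0.05, 6.11e-05) and the acetyltransferase Kat2b (-0.32 ± 0.08, 0.0027). Of 11 other transcription factors that GATA1 or TAL1 bind, 3 were higher and 4 lower, Cbfb, the RUNX partner, by 1.82 ± 0.13 (1.73e-08) and the cell cycle factor E2f2 (-0.87 ± 0.09, 7.19e-07). The median of each list lay between -0.02 and 0.05, beside -0.03 over all genes.

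The genes whose profiles were most like those of the GATA factors were ranked by Pearson's r of log2 values over the 20 libraries, which share sort, day and genotype, among 8649 genes with a mean of at least 50. Those most like Gata1 were Tom1l1 (r = 0.995), Ssx2ip (0.994) and Arnt (0.994). Tom1l1 had 551 to 979 normalised counts over the R1/2 groups and 2438.5 to 5434 over the R3 groups. Those most like Gata2 were Ptprj (0.967), Dennd2d (0.966) and Lgals1 (0.958). Ptprj, encoding a receptor phosphatase, had 109 to 196 in wild type R3 and 627 to 1848 in Gata1s R3, and 400 to 471 in wild type R1/2 against 641 to 830 in Gata1s R1/2. Lgals1, encoding galectin 1, had 4941 to 5321 in wild type R3 and 8635 to 10463 in Gata1s R3.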

How the data were processed

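Values were the normalised counts per gene that the authors deposited for 20 of the 60 samples of the series, a signal in which each library's reads were divided by 1 factor. Whole reads were recovered for 100% of values within 0.001, which gave depths of 6.93 to 32.7 M reads, 1 read being worth 0.36 to 4.72 normalised counts. Per the submitters' processing notes, the tools were TopHat2, HTSeq, DESeq2, Trim Galore and Bowtie2 with mm10 and mm9; which of them served the RNA was not given in the sources used here. The notes give no versions. The table held 1 further sample column, which matched no sample and was not used, and 27 of its 23420 entries had a date as name and were left out. No pair of libraries of 1 group was alike within sampling noise.

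One fit was made with limma 3.58.1 in R 4.3.3 on log2(normalised count + 1) for the 10720 genes with a mean of at least 10, with 8 group means, a prefix term and 11 residual degrees of freedom, and p-values were adjusted by Benjamini-Hochberg over all genes in each of 17 comparisons. Comparisons that share a group are not independent. Alternatives were edgeR 4.0.16 (quasi-likelihood, TMM) and DESeq2 1.42.0 on the recovered reads, other pseudocounts, filters and scalings, the replicate number as a block, single prefixes and single libraries left out; scaling to the library total and limma voom were added after seeing the data. The scripts were tested on simulated data. The 10 genes, the lists and the markers were chosen with earlier results of these data known. The text names all 10 genes, the 3 genes most like Gata1 and Gata2, and up to 2 genes of each list with the smallest adjusted p in the mean genotype difference. Figures were drawn with matplotlib 3.10.9.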

Additional observations from a re-analysis of the deposited data

Results flagged for a closer look

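For the 10 genes, 40 tests of whether a genotype difference itself differed between sorts or days were made, and 20 passed in limma. They are given as values on the log2 scale. Between sorts at E12.5, R3 minus R1/2, the genotype difference differed by 3.02 for Gata2, -1.04 for Lyl1, -0.77 for Lmo2, -0.76 for Zfpm1, -0.68 for Tal1, -0.66 for Tcf3, -0.41 for Gata1 and -0.31 for Ldb1. Between sorts at E14.5 it differed by 3.60 for Gata2, 1.56 for Cbfa2t3 and -0.56 for Ldb1. Between days in R3, E14.5 minus E12.5, it differed by 1.67 for Cbfa2t3, 1.05 for Lyl1, 0.80 for Tal1, 0.77 for Zfpm1, 0.66 for Gfi1b, 0.56 for Gata1, 0.54 for Lmo2, 0.53 for Tcf3 and -0.38 for Ldb1. The Lmo2 difference between days was lost without any 1 of 5 libraries (adjusted p 0.0556 to 0.153): wild type E12.5 R3 replicate 3, wild type E14.5 R3 replicate 1, both Gata1s E12.5 R3 libraries and Gata1s E14.5 R3 replicate 2. Gata2 was the gene with the greatest difference between sorts at both days. The tests between sorts and between days share the R3 libraries. Only 1 group, Gata1s E12.5 R1/2 with 4 libraries, was large enough to look for a library far from the others, and none was found there for any of the 10 genes, where chance flags about 1 in 20; the other 7 groups were not examined.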

How the results depend on the processing

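Of 170 member values, those that kept their side of the threshold, and their direction where they passed, were 170 with a pseudocount of 0.5, 168 with 5, 163 with no filter, 169 with a mean of at least 50, 158 with no prefix term, 152 in MS libraries, 68 of 80 in JC libraries, 168 with upper-quartile scaling, 167 in edgeR, 169 in DESeq2, 168 in voom, 139 with quantile normalisation and 128 with scaling to the library total. The cause was not tested. Values that passed neither way also changed sign, 8 with quantile normalisation, 11 with total scaling, 17 in MS libraries, 16 in JC libraries and 0 to 8 under each other setting; among them, Gfi1b in E12.5 R3 went to 0.14 and Tal1 in the mean to 0.10 with total scaling. Of values that passed in either fit, with quantile normalisation the direction turned for Gata1 in E12.5 R3 (0.24), Tcf3 between sorts in wild type E14.5 (-0.81), and between days in wild type R3 for Gata1 (-0.13), Zfpm1 (-0.063), Tal1 (-0.20), Lyl1 (-0.047) and Tcf3 (-0.075). With total scaling it turned for Gata1 (0.32) and Ldb1 (0.031) in E12.5 R3, Tcf3 in the mean (0.12), between sorts for Gfi1b in wild type E12.5 (-0.040), wild type E14.5 (-0.39) and Gata1s E14.5 (-0.032), and for Tcf3 (-1.16) and Cbfa2t3 (-1.06) in wild type E14.5. It also turned between days in wild type R3 for Gata1 (-0.27), Zfpm1 (-0.22), Tal1 (-0.14), Lyl1 (-0.22), Tcf3 (-0.32), Cbfa2t3 (-0.52) and Gfi1b (-0.495), in Gata1s R3 for Gata1 (-0.043), Tcf3 (-0.13) and Gfi1b (-0.17), and in the test between sorts at E12.5 for Gata1 (0.037) and Ldb1 (0.13).

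Counts of genes passing moved by over 1.5 times in these cases. In E12.5 R1/2 the count of 4 became 2 in JC libraries. In E14.5 R1/2 the count of 5 became 3 with no filter, 2 with no prefix term and 0 in JC libraries. Between days, the count of 0 in wild type R1/2 became 2 in MS libraries, that of 6 in wild type R3 became 3 with no prefix term, 2 in JC libraries and 2 with quantile normalisation, and that of 9 in Gata1s R3 became 5 with quantile normalisation and 5 with total scaling. The test between sorts at E12.5 gave 4 with quantile normalisation and 3 with total scaling in place of 8, and the test between days in R3 gave 3 and 4 in place of 9. With single libraries left out, the genotype counts in R1/2 ranged from 1 to 4 at E12.5 and 0 to 5 at E14.5, those in R3 from 7 to 8 at E12.5 and 5 to 8 at E14.5, and those in the mean from 6 to 7. Between sorts they ranged from 7 to 8 in wild type at both days, 8 to 9 in Gata1s E12.5 and 9 to 9 in Gata1s E14.5, and between days from 0 to 0 in R1/2 of both genotypes, 1 to 6 in wild type R3 and 9 to 10 in Gata1s R3. The test between sorts ranged from 6 to 8 at E12.5 and 3 to 3 at E14.5, and that between days from 0 to 0 in R1/2 and 8 to 9 in R3.

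Replicate numbers gave no clear pairing. Same-numbered libraries of 1 prefix had deviations correlated at -0.17 to 0.365, with 13 of 35 pairs over 0.1. Among pairs of 1 prefix with different numbers, 15 of 53 were over 0.1. In the MS names, R1/2 and R3 of 1 genotype and day carry consecutive numbers that do not always follow the replicate numbers, so this check cannot decide such a pairing. Whether such libraries share embryos is not given, and the tests between sorts treat them as independent. With the replicate block, 147 of 170 values kept their side and none that passed reversed, and the counts became 0 in E12.5 R1/2, 1 in E14.5 R1/2 and 0 in the test between sorts at E12.5. Gata2 in wild type R3 rests on 3 to 16 reads a library, so its fold there is imprecise. On simulated data 39.9% of limma's calls in E14.5 R3 were false, well above the nominal rate, against 4.23% of edgeR's. Limma called 1.22% of the unchanged genes there. Only 200 of 10720 genes were changed, so these are not the false shares of the real calls. Reads were drawn with spreads that edgeR estimated, so the low edgeR share cannot vouch for its calls. In the real data edgeR made the same 8 calls among the 10 genes in E14.5 R3 as limma.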
